A study of Mus musculus with 4 samples.

Results

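The otoconia and endolymph genes are a group of 7 genes named for their roles in the fluid and the crystals of the inner ear: *Oc90*, *Otol1*, *Otop1*, *Nox3*, *Slc26a4*, *Coch* and *Foxi1*. They were taken by symbol from the deposited table of 12814 genes, in which 6 of the 7 were matched. *Foxi1* was not matched, so its expression is not analysed here. The animals were newborn mice of the *Atoh1/nGFP* line (C57BL/6 background), in which an *Atoh1* reporter puts green fluorescent protein into the nuclei of hair cells (HCs). Cells carrying both the fluorescent protein and the epithelial surface protein CD326 were sorted as HCs, from the cochlea and from the vestibular system. Cells with CD326 alone are named epithelial non-sensory cells (ENSCs) here, after the sample labels. The paper calls them epithelial non-HCs, and no marker in the sort separated supporting cells of the sensory epithelium from other epithelial cells. Inner ears of several mice were pooled for a sort. Each of the 4 populations (cochlear HCs, cochlear ENSCs, vestibular HCs and vestibular ENSCs) had 1 column in the table. The design names triplicates, and whether a column is a single library or several combined is not given in the sources used here. Each column is treated as 1 library, so no value has a replicate error, no p-values are given, and no difference could be set against a replicate spread.

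Otoconia are calcium carbonate crystals on a protein scaffold that load the HCs of the utricle and saccule, so that gravity and linear acceleration bend the hair bundles. The scaffold is made by the surrounding non-sensory epithelium: otoconin 90 (*Oc90*) is its main soluble protein and otolin (*Otol1*) a collagen-like partner. The oxidase NOX3 (*Nox3*) and the membrane protein otopetrin 1 (*Otop1*), a proton channel, are each needed for otoconia to form, and mice lacking either have a balance defect. Endolymph is the potassium-rich fluid that bathes the hair bundles. Pendrin (*Slc26a4*) exchanges chloride for bicarbonate at its border and is switched on in the endolymphatic sac by the forkhead factor FOXI1. Cochlin (*Coch*) is a secreted matrix protein known best from fibrocytes of the cochlea and the vestibular labyrinth.

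The 6 genes lay on 5 chromosomes of the mm9 mouse genome. *Oc90* (ENSMUSG00000015001) was at chr15:65707615-65743959, *Otol1* (ENSMUSG00000027788) at chr3:69811535-69832630 and *Otop1* (ENSMUSG00000051596) at chr5:38667211-38695448. *Nox3* (ENSMUSG00000023802) was at chr17:3635240-3696261, and *Slc26a4* (ENSMUSG00000020651, chr12:32204692-32244834) and *Coch* (ENSMUSG00000020953, chr12:52694361-52706760) shared chromosome 12. All are protein-coding, none overlaps another gene of the annotation, and their exonic lengths ran from 1792 nt for *Nox3* to 3239 nt for *Otop1*, below the median of 3819 nt over all annotated genes. Their GC content, 46.98% to 51.8%, lay close to the median of 48.85%.

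Promoter sequences are shown for *Nox3*, *Coch*, *Otop1* and *Slc26a4*, since their signals followed 3 unlike patterns across the libraries. Shown are the bases before the start in the RefSeq table (GRCm38.p6), less those inside the gene's own span, 5′ to 3′ on the gene's strand. Each was found once in mm9 and held no exonic base there; the stretch of *Otop1* lay inside the span annotated for that gene in mm9. Capitals mark matches to motifs searched on both strands: the forkhead motif spelled TGTTTAC, with the variants TGTTTAT and also TATTTAC, the SOX motif spelled ACAAAG or with its variant ACAATG, the GATA motif spelled AGATAA or with its variant TGATAA, the homeodomain motif spelled TAATTA, the ESRR motif spelled AAGGTCA and the RFX core spelled GTTGCC. No match overlapped another.
*Nox3*, chr17:3696262-3696511, minus strand: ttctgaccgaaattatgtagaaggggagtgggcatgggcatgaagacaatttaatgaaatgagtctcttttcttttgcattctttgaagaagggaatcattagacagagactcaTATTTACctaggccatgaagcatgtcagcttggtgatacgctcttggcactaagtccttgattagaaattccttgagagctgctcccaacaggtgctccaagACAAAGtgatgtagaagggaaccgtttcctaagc
*Coch*, chr12:51593091-51593282, plus strand: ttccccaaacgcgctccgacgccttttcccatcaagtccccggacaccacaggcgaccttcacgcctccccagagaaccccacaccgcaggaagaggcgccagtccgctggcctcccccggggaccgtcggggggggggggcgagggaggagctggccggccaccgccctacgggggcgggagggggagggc
*Otop1*, chr5:38277154-38277403, plus strand: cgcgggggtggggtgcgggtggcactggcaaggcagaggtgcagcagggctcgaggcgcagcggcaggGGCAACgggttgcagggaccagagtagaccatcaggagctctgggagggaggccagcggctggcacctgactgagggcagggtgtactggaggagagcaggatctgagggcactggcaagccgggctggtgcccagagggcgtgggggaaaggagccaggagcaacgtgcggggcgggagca
*Slc26a4*, chr12:31560056-31560234, minus strand: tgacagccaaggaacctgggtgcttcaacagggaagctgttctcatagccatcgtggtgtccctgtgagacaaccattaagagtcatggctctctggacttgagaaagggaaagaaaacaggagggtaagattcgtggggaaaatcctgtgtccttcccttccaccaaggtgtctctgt
In *Nox3* the capitals are a forkhead match that begins at position -136 from the start and a SOX match that begins at position -34. In *Otop1* they are an RFX core on the opposite strand, at position -182. No searched motif occurred in the 250 bases before *Coch*, *Slc26a4* or *Foxi1*, and *Otol1* held a single GATA match. The same window held a forkhead match in 9.45% of all 32851 promoter entries, a SOX match in 25.2%, a GATA match in 16.6%, an RFX core in 10.4%, TAATTA in 4.84% and an ESRR match in 4.08%. A match is a description of the letters only. *Oc90* had no entry in the table.

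Levels are given as quantile-normalized signals, that is, read counts per gene brought by the authors to the same distribution in all libraries, with a floor of 20. Every library therefore had a median of 120. The lowest signals of 3 libraries form a tied range in which a value does not rank the gene: it reached 24.25 in cochlear HCs, 22.75 in cochlear ENSCs and 30.5 in vestibular HCs, and was the floor itself in vestibular ENSCs. Folds against a tied signal are given as lower bounds against the top of that range. The sort was checked with marker lists. All 6 HC markers were at least 3-fold higher in HCs of each organ, and *Epcam*, which encodes CD326, had 1017 in cochlear HCs, 3376 in cochlear ENSCs, 1139 in vestibular HCs and 7511 in vestibular ENSCs. Of the 5 epithelium markers 4 were at least 3-fold lower in HCs of the cochlea and 5 in those of the vestibular system. The exception was *Cdh1*, with 6003 in cochlear HCs and 4853 in cochlear ENSCs. Genes listed as markers of other cells were also found in HCs. Of the 3 matched neuron markers (*Nefl*, *Nefm* and *Isl1*), 2 exceeded ENSCs at least 3-fold in cochlear HCs and 3 in vestibular HCs. Whether their transcripts came from HCs or from neurons was not tested. Of the 5 matched mesenchyme markers 1 was higher (*Pdgfra*) and 1 lower in cochlear HCs than in cochlear ENSCs, and 1 was higher (*Pdgfra*) and 3 lower in vestibular HCs than in vestibular ENSCs. In bulk RNA of this kind fewer cells of a type and less RNA per cell cannot be told apart.

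To ask where the genes of otoconia are expressed, the scaffold genes were described first. *Oc90* had signals of 463 in cochlear HCs, 5342 in cochlear ENSCs, 644 in vestibular HCs and 37324 in vestibular ENSCs. The vestibular ENSC signal was the sixth highest of all genes in that library (rank 6), and the gene was higher in ENSCs than in HCs by 11.5-fold (cochlea) and 57.9-fold (vestibular system, log2 ratios of HC to ENSC -3.53 and -5.86). ENSCs of the vestibular system exceeded those of the cochlea 6.99-fold, whereas the HC libraries differed by only 1.39-fold.

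*Otol1* was spread more evenly, with 702 in cochlear HCs, 1223 in cochlear ENSCs, 1647 in vestibular HCs and 4853 in vestibular ENSCs. As for *Oc90*, vestibular ENSCs were highest and cochlear HCs lowest, but vestibular HCs stood above cochlear ENSCs. HCs were below ENSCs by log2 ratios of -0.80 (cochlea) and -1.56 (vestibular system), the latter a 2.95-fold difference, just under the 3-fold line used to call a gene. Between organs the log2 ratios were 1.99 in ENSCs and 1.23 in HCs, both towards the vestibular system.

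The genes needed for the crystals to form had unlike patterns. *Nox3* had 24.25 in cochlear HCs, 34.25 in cochlear ENSCs, 30.0 in vestibular HCs and 2604 in vestibular ENSCs. Both HC signals were inside the tied range, so that the transcript stood clear of the low values in vestibular ENSCs and only slightly so in cochlear ENSCs. It was 76.0-fold higher in vestibular than in cochlear ENSCs (log2 ratio 6.25, rank 3 of all genes), and at least 85.4-fold higher than in vestibular HCs. With a floor of 100 the log2 ratio between ENSC libraries was 4.70, and with a pseudocount of 100 it was 4.33.

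*Otop1* had 22.5 in cochlear HCs, 21.5 in cochlear ENSCs, 242 in vestibular HCs and 121 in vestibular ENSCs. Both cochlear signals were inside the tied range, and *Otop1* was the only one of the 6 genes with its highest signal in HCs. In the vestibular system HCs exceeded ENSCs 2.0-fold (log2 ratio 0.997), under the 3-fold line. The vestibular libraries exceeded those of the cochlea at least 9.98-fold in HCs and at least 5.33-fold in ENSCs. The signals behind these calls were low, and with a floor of 100 the log2 ratios between organs fell to 1.28 in HCs and 0.28 in ENSCs.

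Among the endolymph genes, *Slc26a4* had 23.5 in cochlear HCs, 282 in cochlear ENSCs, 35.25 in vestibular HCs and 226 in vestibular ENSCs. It marked ENSCs of both organs at similar signals (log2 ratio of vestibular to cochlear ENSCs -0.32). ENSCs exceeded HCs at least 11.6-fold among cochlear cells and 6.40-fold among vestibular cells. With a floor of 100 the log2 ratios of HC to ENSC were -1.49 and -1.17, both under 3-fold.

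*Coch* had 33.75 in cochlear HCs, 22.5 in cochlear ENSCs, 47.0 in vestibular HCs and 823 in vestibular ENSCs. The cochlear ENSC signal was inside the tied range and the vestibular one at least 36.2-fold higher, rank 21 of all genes for that ratio (log2 ratio 5.19). With a floor of 100 that log2 ratio was 3.04, and with a pseudocount of 100 it was 2.91. In the vestibular system ENSCs exceeded HCs 17.5-fold (log2 ratio -4.13), while in the cochlea the HC signal was the higher of a pair of low values (log2 ratio 0.58).

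**Figure D1:**
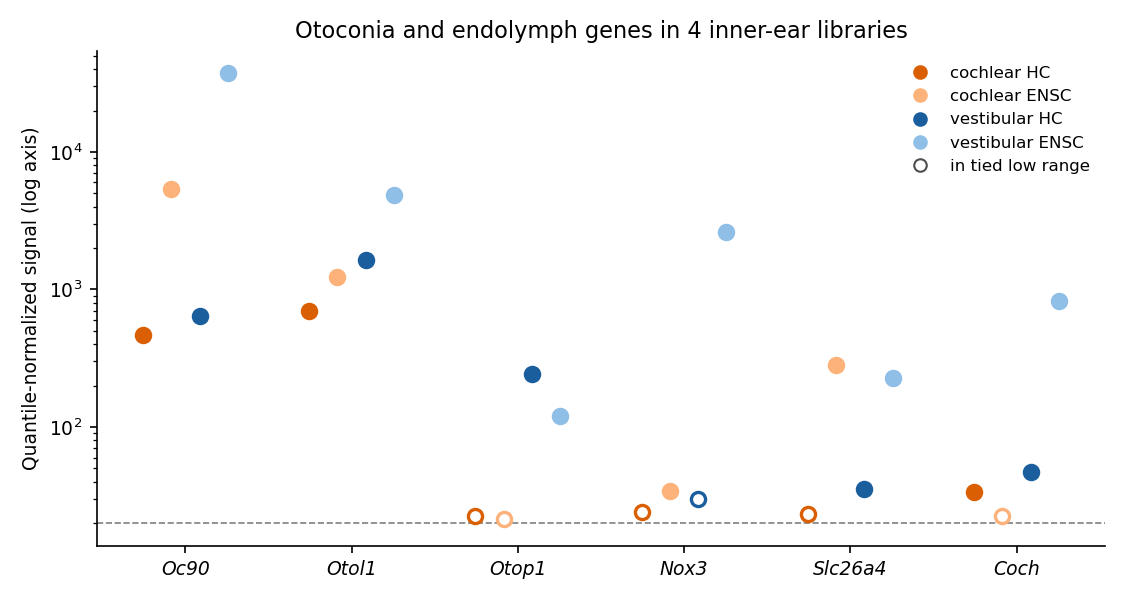
Quantile-normalized signal (log axis) of the 6 genes in the 4 libraries, 1 point per library with no replicates; open points lie in a library's tied low range and the dashed line is the floor of 20. The vestibular ENSC point is the highest for *Oc90*, *Otol1*, *Nox3* and *Coch*, the cochlear ENSC point (282) for *Slc26a4* and the vestibular HC point (242) for *Otop1*.

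Since signals carry the length of the gene, genes were set side by side only as signal per kb of exon. In vestibular ENSCs *Oc90* had 19511 per kb, followed by *Otol1* (2246), *Nox3* (1453), *Coch* (316), *Slc26a4* (73.4) and *Otop1* (37.4). Per kb, *Oc90* ranked 7 and *Otol1* 99 among all annotated genes of this library. In cochlear ENSCs *Oc90* (2792 per kb) again stood above *Otol1* (566), with *Slc26a4* next (91.6). The order of the scaffold genes was the other way round in HCs, where *Otol1* had 325 per kb against 242 for *Oc90* (cochlea) and 762 against 337 (vestibular system). Whether neighbours in these orders differ beyond the spread of replicates cannot be said from 1 library each.

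The question whether these genes set HCs apart from ENSCs was put to each organ. A gene was called at a ratio of at least 3. In the cochlea 2 of the 6 genes (*Oc90* and *Slc26a4*) were lower in HCs and none was higher, where 9.2% of all genes were lower, 8.39% higher and 17.6% either. In the vestibular system 4 of the 6 (*Oc90*, *Nox3*, *Slc26a4* and *Coch*) were lower in HCs and none was higher, where 14.3% of all genes were lower, 13.8% higher and 28.1% either. For the 6 genes the median log2 ratio was -0.65 (cochlea) and -3.40 (vestibular system), against 0.00 over all genes in each organ. Correction of the ratios for gene length and GC content kept the 4 vestibular calls and added *Otol1* (log2 ratio -1.59). Over all genes it moved the share of higher among vestibular calls from 49.0% to 59.5%.

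**Figure D2:**
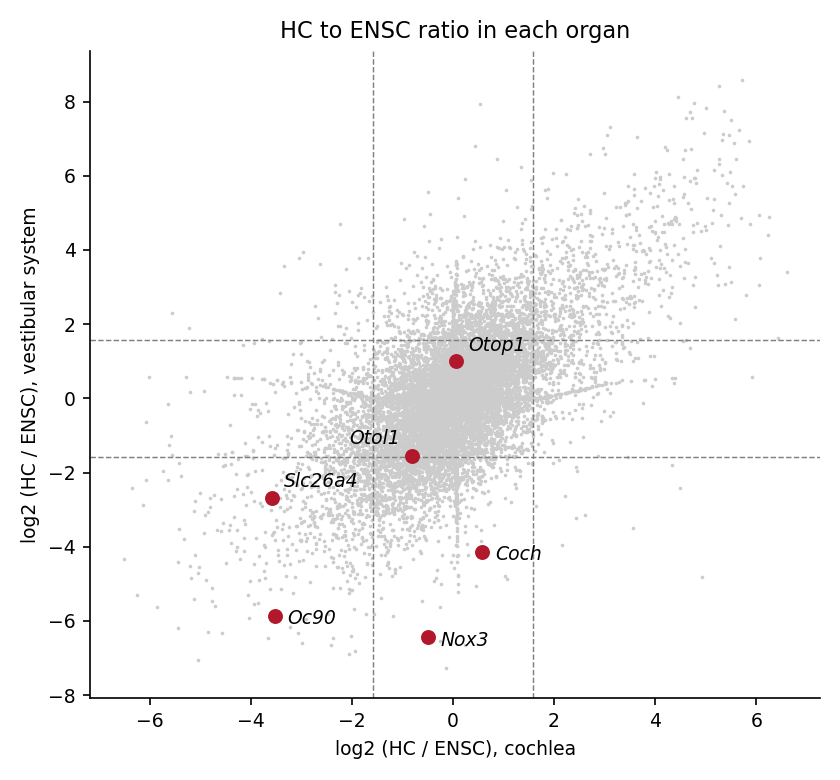
Log2 ratio of HC to ENSC in the cochlea (horizontal) and the vestibular system (vertical) for all 12814 genes (grey) and the 6 otoconia and endolymph genes (red); dashed lines mark 3-fold. *Oc90* and *Slc26a4* lie past 3-fold below 0 on both axes, while *Nox3* (-0.50 and -6.44) and *Coch* (0.58 and -4.13) lie past it on the vestibular axis only.

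The HC to ENSC ratio differed most between organs for *Nox3* and *Coch*. The vestibular minus cochlear difference of log2 ratios was -5.94 for *Nox3*, the 11th lowest of all genes (rank 11), and -4.71 for *Coch* (rank 29). It was -2.33 for *Oc90* and -0.76 for *Otol1*. *Otop1* and *Slc26a4* went the other way, with 0.93 and 0.90. In cochlear HCs and ENSCs the signals were low, 24.25 and 34.25 for *Nox3* and 33.75 and 22.5 for *Coch*. With a floor of 100 the cochlear log2 ratios of both were 0.00 and the vestibular ones -4.70 (*Nox3*) and -3.04 (*Coch*). None of the differences between organs could be tested.

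The direct comparison of the organs gave a one-sided picture in ENSCs. Vestibular ENSCs were at least 3-fold above cochlear ENSCs for 5 of the 6 genes, all but *Slc26a4*, where 7.94% of all genes were higher, 7.8% lower and 15.7% either. The median log2 ratio was 2.65 (2.61 with tied signals at the top of their range), against 0.00 over all genes. Epithelium markers moved with these genes: 3 of 5 were at least 3-fold higher in vestibular ENSCs and none was lower (median log2 ratio 1.79), with *Krt8* at 3.98 and *Krt18* at 3.41. The glial and otic marker *Sox10* was higher too (2.55). Their part in the result was not tested. Vestibular HCs were at least 3-fold above cochlear HCs for *Otop1* alone, where 5.09% of all genes were higher, 4.21% lower and 9.3% either. The median there was 0.53. The ENSC comparison uses the same vestibular ENSC library as the vestibular HC to ENSC ratio, so the calls of *Oc90*, *Nox3* and *Coch* in both rest in part on the same values.

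Genes of related roles were counted next, from lists drawn up by textbook function. Their counts stand against the shares over all genes given above, 7.94% higher and 7.8% lower in vestibular than in cochlear ENSCs and 14.3% lower in vestibular HCs than in vestibular ENSCs. Among proteins of otoconia and of the membranes over the sensory epithelia, 10 of 13 were matched, and 4 were higher and 1 lower in vestibular than in cochlear ENSCs (median log2 ratio 0.21). *Sparc*, a calcium-binding matrix protein, had 3326 in cochlear HCs, 16060 in cochlear ENSCs, 2650 in vestibular HCs and 62029 in vestibular ENSCs. Its pattern had the order of *Oc90* among the ENSCs, with a log2 ratio of vestibular to cochlear ENSCs of 1.95. *Otog*, which encodes otogelin of the otoconial and tectorial membranes, had a log2 ratio of 2.93 between the same libraries. *Spp1* (3.39) and *Hspg2* (3.64) were the others that were higher, and *Tectb*, which encodes a protein of the tectorial membrane, was lower (-2.41). *Otoa*, whose product anchors these membranes to the epithelium, stood at 1081 and 2121 in cochlear and vestibular ENSCs and was lower in HCs, with log2 ratios of -4.14 (cochlea) and -3.28 (vestibular system).

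NOX3 works with the membrane subunit p22phox (*Cyba*) and cytosolic partners. Of 10 genes for subunits and relatives 3 were matched. *Cyba* was low throughout, with 20 in both HC libraries, 27.25 in cochlear ENSCs and 37.0 in vestibular ENSCs. None of the 3 reached 3-fold between the ENSC libraries, where *Rac1*, which encodes a small GTPase, had a log2 ratio of 1.33 and *Nox4* one of -1.12. *Nox3* at 76.0-fold was thus not accompanied at that size by any matched gene of the list.

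Among 13 listed genes for otopetrins and calcium handling 9 were matched. *Atp2b2* and *Atp2b3*, which encode calcium pumps of the plasma membrane, and the sodium-calcium exchanger gene *Slc8a1* were at least 3-fold higher in HCs of both organs. *Atp2b2* had 2100 in cochlear HCs, 448 in cochlear ENSCs, 1783 in vestibular HCs and 128 in vestibular ENSCs. Against these 3, 1 of the 9 was lower in cochlear HCs and 2 in vestibular HCs. Of the latter, *P2ry2* had a tied HC signal and was 2.61-fold lower at the top of the tied range. Between ENSC libraries 3 of the 9 were higher and 2 lower in the vestibular one. Over all genes 8.39% (cochlea) and 13.8% (vestibular system) were higher in HCs. None of the 9 was at least 3-fold apart between the HC libraries, where 9.3% of all genes were.

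The acid-base list matched 17 of 28 genes. Here 2 were higher and 1 was lower in vestibular than in cochlear ENSCs, close to the 7.94% and 7.8% over all genes, with a median log2 ratio of 0.00. *Atp6v1b1*, which encodes a subunit of the proton pump that is known as a FOXI1 target in the endolymphatic sac, had 323 in cochlear ENSCs and 20 in vestibular ENSCs, and was at least 16.1-fold lower in the latter. Both HC signals of *Atp6v1b1* were inside the tied range. *Slc26a4* differed little between the same libraries. The anion exchanger gene *Slc26a7*, a relative of *Slc26a4*, had 24.25 in cochlear HCs, 1282 in cochlear ENSCs, 133 in vestibular HCs and 513 in vestibular ENSCs. Like *Slc26a4* it was at least 3-fold lower in HCs of both organs.

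Genes of potassium secretion into endolymph, the task of vestibular dark cells and of marginal cells in the cochlea, matched 16 of 21. In vestibular ENSCs 7 were higher and 3 lower than in cochlear ENSCs (median log2 ratio 1.5, or 1.41 with tied signals at the top of their range). In the vestibular system 8 were lower in HCs than in ENSCs. Of these, *Scnn1g* had a tied HC signal and was 2.94-fold lower at the top of the tied range. *Kcne1*, which encodes the subunit of the secretory potassium channel, had 24 in cochlear HCs, 139 in cochlear ENSCs, 29.5 in vestibular HCs and 671 in vestibular ENSCs. *Atp1b2*, a subunit gene of the sodium pump, had a log2 ratio of vestibular to cochlear ENSCs of 2.80. The chloride channel subunit gene *Bsnd* was inside the tied range in 3 libraries and had 104 in vestibular ENSCs. The connexin genes *Gjb2* (-3.63) and *Gjb6* (-1.67) and the sodium pump gene *Atp1b1* (-1.90) were lower there. Of the 7 markers of dark and marginal cells, 4 were higher and none was lower in vestibular ENSCs, and their summed signal was 5631 in cochlear HCs, 17469 in cochlear ENSCs, 5705 in vestibular HCs and 16181 in vestibular ENSCs. *Slc12a2* alone held 15031 of the cochlear and 8051 of the vestibular ENSC sum. The part of such cells in the signals of *Nox3* and *Oc90* was not tested.

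Fibrocyte matrix genes were listed because *Coch* is best known from fibrocytes, which the CD326 gate should leave out. They matched 16 of 19, of which 4 were higher and 4 lower in vestibular than in cochlear ENSCs (median log2 ratio 1.13), and 13 were lower in vestibular HCs than in vestibular ENSCs. *Vit*, which encodes a matrix protein with the domains of cochlin, had 24.25 in cochlear HCs, 22.5 in cochlear ENSCs, 40.5 in vestibular HCs and 1521 in vestibular ENSCs. This is the order of *Coch*, with the cochlear signals inside the tied range. Of 8 mesenchyme markers 5 were matched, and their summed signal was 596 in cochlear HCs, 1797 in cochlear ENSCs, 330 in vestibular HCs and 1605 in vestibular ENSCs, nearly level between the ENSC libraries. Single markers were not level: *Col1a1* had 58.25 and 512 in cochlear and vestibular ENSCs, *Col3a1* 46.25 and 547, and *Col1a2* 1618 and 443. *Tbx18*, a mesenchyme transcription factor gene, had the floor value in cochlear HCs and ENSCs, 20.5 in vestibular HCs and 54.75 in vestibular ENSCs. The part of mesenchymal cells in the *Coch* signal was not tested.

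Regulators of the non-sensory otic epithelium matched 17 of 23, with 5 higher and 6 lower in vestibular than in cochlear ENSCs. *Lmx1a*, needed for non-sensory epithelium and for the endolymphatic duct, had 37.0 in cochlear HCs, 1611 in cochlear ENSCs, 30.0 in vestibular HCs and 2173 in vestibular ENSCs. *Gata2* had 98.25, 1429, 74.75 and 3400 in the same order. These factors thus marked ENSCs of both organs, as *Slc26a4* and *Oc90* did. *Esrrb*, a nuclear receptor gene of marginal and dark cells, was closer to *Nox3*, with 72.75 in cochlear ENSCs and 1235 in vestibular ENSCs (log2 ratio 4.09). *Gata3* (-6.14) was far lower in vestibular ENSCs.

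**Figure D3:**
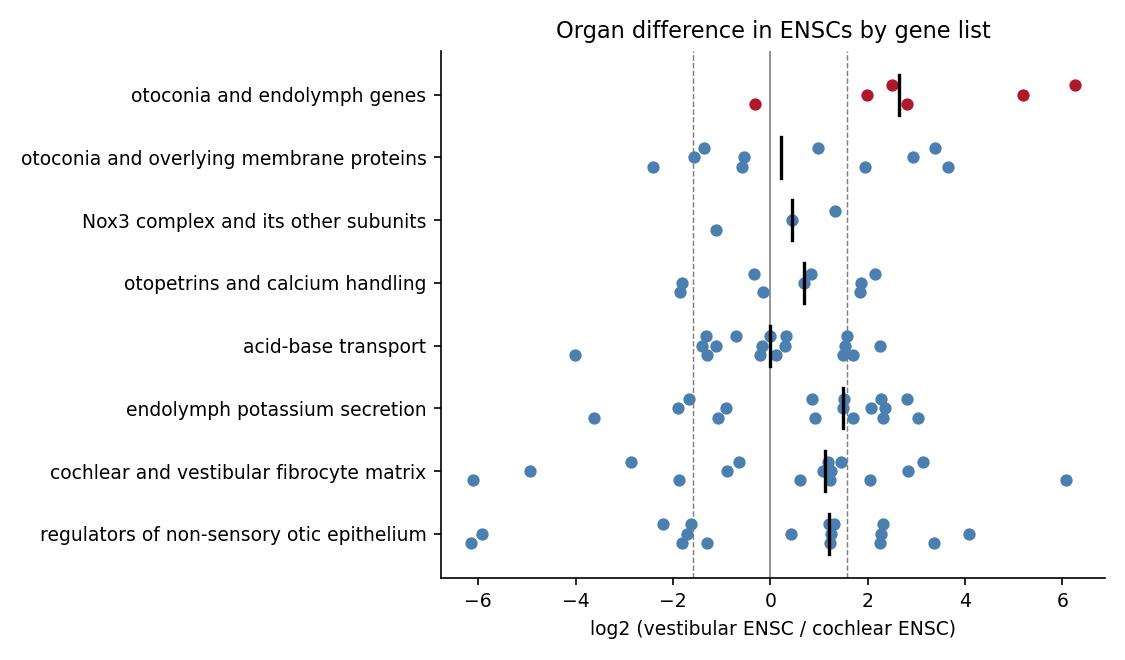
Log2 ratio of vestibular to cochlear ENSCs for the 6 otoconia and endolymph genes (red) and the genes of 7 related lists (blue), 1 point per gene, with list medians as black bars and 3-fold as dashed lines. The median is 2.65 for the otoconia and endolymph genes and between 0.00 and 1.5 for the other lists.

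Finally, the genes with the most similar profile were named for each gene. They were those with the smallest Euclidean distance over 4 libraries between log2 signals centred on their mean. Compared were 6727 protein-coding genes that reached 200 in some library. Tied signals entered unchanged, so some distances rest in part on values that do not rank a gene. The result is a description over 4 shared libraries, and the genes named depend on the measure. Of the 30 named, 2 were kept with Pearson correlation (*Kdr* and *Sod3*, both named for *Nox3*) and 14 with a minimum signal of 1000. None of those named for *Coch* was kept with either. Nearest to *Oc90* were *Ptgds* (distance 0.32), which encodes a prostaglandin D synthase, *Frem1* (0.39), *Anpep* (0.47), *Hspg2* (0.68) and *Enpep* (0.82). *Ptgds* had 27.0 in cochlear HCs, 251 in cochlear ENSCs, 29.75 in vestibular HCs and 2149 in vestibular ENSCs. Nearest to *Nox3* were the prostaglandin transporter gene *Slco2a1* (0.26), *Gm106* (0.63), *Sfrp5* (0.65), *Kdr* (0.68) and *Sod3* (0.88), which encodes the extracellular superoxide dismutase. *Kdr* was also the only matched one of 4 endothelium markers, with 24.25 in cochlear HCs, 29.0 in cochlear ENSCs, 29.75 in vestibular HCs and 1462 in vestibular ENSCs, and the part of endothelial cells, which the CD326 gate should leave out, in the *Nox3* signal was not tested.

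The profile of *Coch* was closest to those of *Gm9846* (0.45), *Tmem215* (0.50), *Vnn1* (0.53), *Bpifb5* (0.55) and *Ifitm3* (0.57), none of which passed 47.0 outside vestibular ENSCs. *Slc26a4* was closest to *Vwa5a* (0.21), *Hsd17b11* (0.29), *Slc44a3* (0.30), *Cdo1* (0.31) and *Anxa1* (0.31). *Otop1* was closest to *Ephx1* (0.32), the retinoic acid receptor gene *Rarb* (0.52), *Sphkap* (0.52), *Rab11b* (0.54) and *Rcan2* (0.56). *Otol1* was closest to *Adamtsl1* (0.25), *Ppp2r2b* (0.29), *Amd1* (0.29), *Cish* (0.31) and *Tm2d2* (0.32). None of the 6 genes was among the 5 nearest of another. The closest pair was *Nox3* and *Coch*, at a distance of 1.86, and the farthest *Oc90* and *Otop1*, at 5.63.

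**Figure D4:**
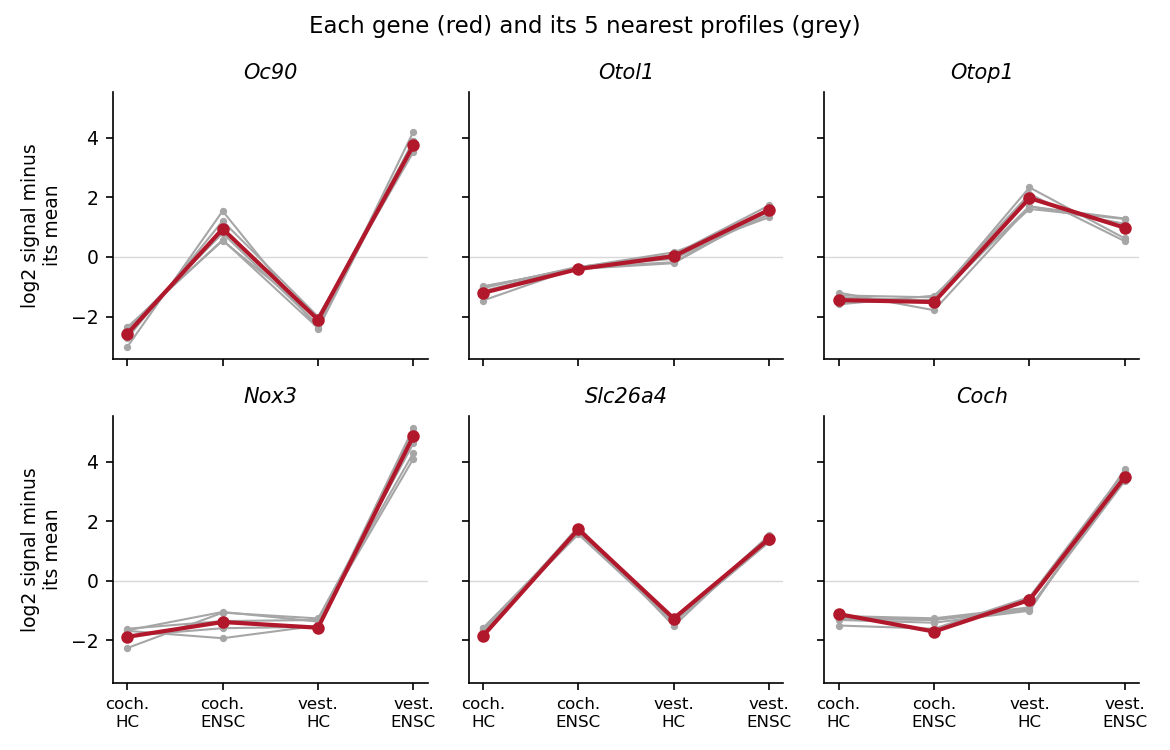
Centred log2 signals of each of the 6 genes (red) and of its 5 nearest genes (grey) across cochlear HCs, cochlear ENSCs, vestibular HCs and vestibular ENSCs. *Oc90* and *Slc26a4* are higher in both ENSC libraries than in the HC libraries, *Nox3* and *Coch* in vestibular ENSCs, and *Otop1* in the vestibular libraries.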

How the data were processed

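The authors sorted cells from newborn inner ears, amplified RNA with the NuGEN Ovation system, used TopHat to place 50 nt from the start of the reads on mm9, and took counts for ENSEMBL genes from HTSeq. Quantile normalization and a floor of 20 followed. Versions, ENSEMBL release and strand setting are not given in the sources used here. The deposited values are thus a normalized signal and not counts, depth is unknown, and overall shifts between libraries are removed. Columns were matched to samples by title, and the non-HC columns were read as ENSCs. With 1 library per group the log2 ratio of the deposited signals was taken without a pseudocount, and ratios of at least 3 were called. Positions, exonic length and GC content came from GENCODE for NCBIM37 (mm9), which held 12799 of 12814 identifiers. Tied ranges were found per library as the low values ordered only by the signal of the genes in the other libraries. Every gene of the lists could be named, and the 5 nearest profiles per gene, except for 1 gene of the regulator list, whose own values are not reported here. The members and lists were chosen with earlier results of these data known. Alternatives were floors of 50 and 100, pseudocounts of 20 and 100, tied ranges at their top, genes with a signal of at least 100, centring, length and GC correction by local regression (0.3 of the genes, 2 robust iterations, statsmodels 0.14.6), and thresholds of 2 and 5. The correction and the profile search were tested on simulated data.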

Additional observations from a re-analysis of the deposited data

Results flagged for a closer look

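The HC to ENSC ratio of *Coch* pointed opposite ways in the organs, with a vestibular minus cochlear log2 difference of -4.71, although the cochlear signals were 33.75 and 22.5. Of the related genes, *Slc4a4*, which encodes a sodium bicarbonate cotransporter, was past 3-fold in opposite directions (difference 5.38). It had 24.25 in cochlear HCs, 333 in cochlear ENSCs, 1268 in vestibular HCs and 417 in vestibular ENSCs. Its vestibular ratio was 3.04-fold, just past the line, and its cochlear HC signal was inside the tied range. With 1 library per group these differences were not tested.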

How the results depend on the processing

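No log2 ratio of the 6 genes that was past 3-fold changed direction under the 10 alternatives. Of 240 recomputed ratios, 228 stayed on their side of the threshold, 9 fell under it and 3 passed it. The calls of the 6 genes, 2 in the cochlear and 4 in the vestibular HC to ENSC ratio, 5 between ENSC libraries and 1 between HC libraries, moved as follows. With a floor of 100 the cochlear calls were 1 and those between HC libraries 0. With a pseudocount of 100 the latter were 0, and at a 2-fold threshold 2. Calls between ENSC libraries were 4 with floors of 50 and 100, a pseudocount of 100 and a 5-fold threshold. Vestibular HC to ENSC calls were 3 with a floor or pseudocount of 100, and 5 at 2-fold and with length and GC correction. Calls in either direction among the 88 related genes, 35 and 50 in the cochlear and vestibular HC to ENSC ratios, 42 between ENSC libraries and 15 between HC libraries, are given where they moved by over 1.5 times or moved their share of higher calls by over 10 percentage points. With a floor of 100 there were 32 in the vestibular HC to ENSC ratio, and 29 between ENSC libraries, 14 higher and 15 lower against 25 and 17, and 10 between HC libraries, 3 higher and 7 lower against 7 and 8. With a pseudocount of 100 they were 27 in that ratio, 24 between ENSC libraries (12 higher and 12 lower) and 9 between HC libraries (2 higher and 7 lower). At 2-fold there were 66 between ENSC libraries and 24 between HC libraries, and at 5-fold 30 in the vestibular HC to ENSC ratio and 21 between ENSC libraries. Of the 30 nearest profiles, 2 were kept with Pearson correlation and 14 with a minimum signal of 1000. The order per kb was the same in all 4 libraries with the longest transcript. Depth is unknown, and no library could be left out. No paired analysis was possible because each group has 1 library.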
